A study of Mus musculus with 12 samples.

Results

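The genes described here encode the potassium and sodium channels of the cell membrane and their accessory subunits. They were taken by name, as every gene whose only annotated symbol begins with Kcn, or with Scn followed by a digit, and each gene was read from its brightest probe set by the mean over all 12 arrays. This gave 95 genes of the 18193 measured, of which 84 were Kcn genes and 11 were Scn genes, and no filter on low signals was applied. The symbols include 3 non-coding RNAs named after a channel gene. Signals came from whole tongues of C57BL/6J mouse embryos at embryonic day 13.5, hybridised to Affymetrix 3′ expression arrays with 1 array per sample. The mutant samples were Myf5-Cre;Smad4flox/flox (n = 6) and the control samples Myf5-Cre;Smad4flox/+ (n = 6). Embryos of both genotypes therefore carried the Cre recombinase driven by Myf5, a gene of the skeletal muscle lineage, and both copies of Smad4, the shared transducer of TGF-β and BMP signals, could be recombined in mutants and 1 copy in controls. The tissue also holds cells outside that lineage, which keep Smad4. The labels call the samples biological replicates and do not say which litters they came from or how many tongues each held, so p-values measure the spread between these samples.

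Voltage-gated sodium channels open when the membrane depolarises and carry the rising phase of the action potential, and potassium channels set the resting potential and end the action potential. Each channel is built from pore-forming subunits, and accessory subunits change how the pore opens and where it sits in the cell. Excitable cells choose among the isoforms. Skeletal muscle fibres rely on Scn4a and on inward rectifiers, neurons use other sodium channels together with many voltage-gated and calcium-activated potassium channels, and epithelia, glia and smooth muscle have channels of their own. Mouse tongue muscle at this stage is still forming fibres, and sensory, motor and autonomic nerves are growing into the tissue.

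Medians of the arrays lay between 6.09 and 6.17 on the log2 scale of the signals, and correlations between arrays were 0.991 to 0.997. All 13 markers of skeletal muscle, the main tissue of the tongue, were above the median signal of all probe sets (6.13). The leading principal component held 35% of the variance, and on it mutants 1 and 2 lay farthest from the controls, at 24.7 and 20.3, against 2.90 to 14.8 for the other mutants and −16.7 to −9.44 for the controls. Signals of both sexes were found on mutant 4 (Xist 8.73, Eif2s3y 9.03), mutant 6 (7.88 and 8.88) and control 3 (12.4 and 6.03), and 18S signal was lowest on mutant 6 (13.0) and control 6 (13.5). Smad4 itself read 11.58 on mutant 1, 12.18 to 12.30 on the other 5 mutants and 12.16 to 12.35 on controls. Its difference was −0.15 (limma adjusted p = 0.427) and −0.04 without mutant 1, and no source used here says which exons its probes cover.

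Of the 95 channel genes, 14 passed the test between genotypes, 8 higher and 6 lower in mutants (limma, 6 arrays per group, adjusted p under 0.05 over all genes). That is 14.7% of the members, and 11.1% of all genes passed in the same comparison. In each direction the shares were 8.42% of the members higher, against 6.30% of all genes, and 6.32% lower, against 4.80%. Shares in both directions were near the background of all genes, which is not matched for signal. Above the median signal of all probe sets 20.9% of members and 14.8% of all genes passed, and at or under it 9.62% and 3.52%. These differences in share were not tested. At an unadjusted p under 0.05 there were 10 members higher and 12 lower. Over all 18193 genes there were 2676 higher and 1833 lower, or 24.8% with both directions together. At this threshold falls thus outnumbered rises among members, and rises outnumbered falls over all genes. The median difference of the members was 0.02 on the log2 scale, beside 0.01 for all genes, and the members ranged from −0.69 for Kcnk13 to 0.65 for Scn3a. No difference was larger than 1.61-fold. Without mutants 1 and 2 the counts were 4 higher and 5 lower, and without control 3, mutant 4 and mutant 6 they were 4 higher and 3 lower. In those fits with fewer arrays, all genes gave 379 higher and 496 lower, and 440 higher and 396 lower.

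The genes that passed were divided by known site of use. All 8 genes that rose were neuronal by the list (6), the antisense RNA of one of those 6, or an inward rectifier in no list, and none of the 7 measured muscle channels passed. Of the 6 that fell, 1 was on the smooth muscle list and 5 on none. The lists were drawn up with earlier results on these arrays known, so these counts describe the genes and are not independent evidence.

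**Figure D1:**
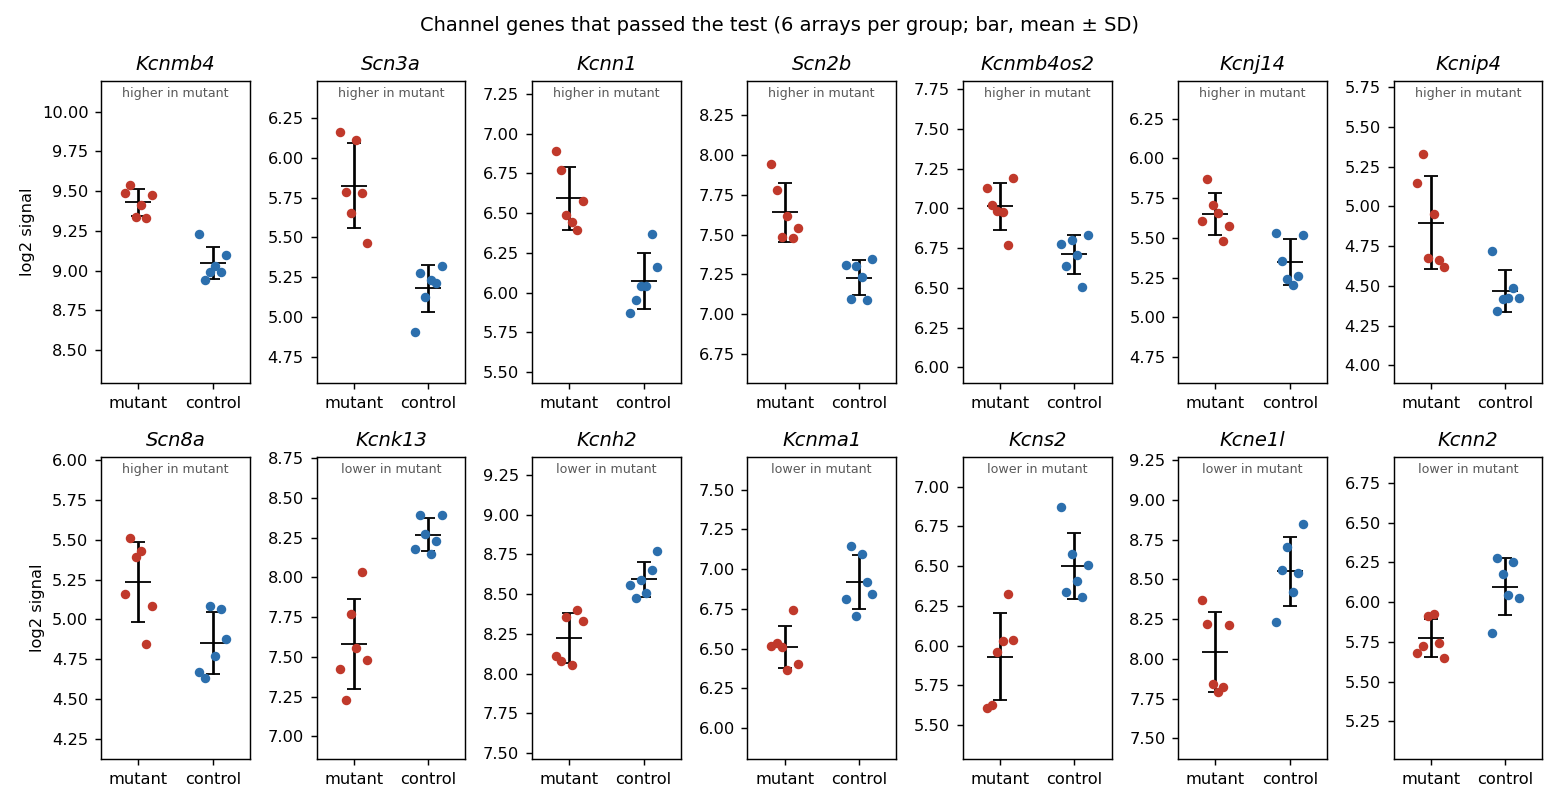
Log2 signal (vertical axis, a span of 1.9 in every panel) of the 14 channel genes that passed, on 6 mutant arrays (red, left) and 6 control arrays (blue, right); bars are mean ± SD. The first 8 genes are higher and the last 6 lower in mutants, and the groups share no values in Kcnmb4, Scn3a, Kcnn1, Scn2b, Kcnk13 and Kcnh2.

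In 6 genes the groups did not overlap, 4 of them higher and 2 lower in mutants. This is 6.32% of the members, and the groups did not overlap in 6.30% of all genes, 3.40% higher and 2.90% lower. The promoters of 5 of these genes are printed here so that the start regions of the genes whose groups did not overlap can be compared. Scn3a is named only. Sequences are those of RefSeq on GRCm38.p6, 250 bases before to 50 after the annotated start, and 10 of the 14 genes that passed had an entry. The windows lie at chr10:116473474-116473773 on the minus strand (Kcnmb4), chr9:45117626-45117925 on the plus strand (Scn2b), chr8:70863209-70863508 on the minus strand (Kcnn1, the first of 2 starts), chr12:99964249-99964548 on the plus strand (Kcnk13) and chr5:24329542-24329841 on the minus strand (Kcnh2). Capitals mark CAGCTG, an E-box read by myogenic and neuronal bHLH factors, which is its own reverse complement and is counted once for both strands.
Kcnmb4: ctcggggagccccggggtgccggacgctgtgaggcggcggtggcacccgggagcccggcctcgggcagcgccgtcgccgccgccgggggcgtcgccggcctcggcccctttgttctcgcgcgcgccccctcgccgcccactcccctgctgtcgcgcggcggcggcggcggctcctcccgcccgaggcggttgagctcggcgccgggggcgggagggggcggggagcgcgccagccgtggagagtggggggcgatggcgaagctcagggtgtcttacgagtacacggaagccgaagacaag
Scn2b: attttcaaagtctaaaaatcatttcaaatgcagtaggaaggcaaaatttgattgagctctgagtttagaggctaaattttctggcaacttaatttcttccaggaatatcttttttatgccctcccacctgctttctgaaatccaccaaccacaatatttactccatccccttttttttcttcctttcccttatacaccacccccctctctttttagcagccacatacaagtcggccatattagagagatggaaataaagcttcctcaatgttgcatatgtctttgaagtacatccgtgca
Kcnn1: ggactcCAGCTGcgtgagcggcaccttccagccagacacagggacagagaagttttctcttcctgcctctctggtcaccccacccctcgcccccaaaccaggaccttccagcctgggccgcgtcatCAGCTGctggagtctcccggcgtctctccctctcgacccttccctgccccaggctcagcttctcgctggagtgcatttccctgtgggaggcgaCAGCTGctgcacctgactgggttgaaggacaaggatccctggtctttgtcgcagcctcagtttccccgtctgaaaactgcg
Kcnk13: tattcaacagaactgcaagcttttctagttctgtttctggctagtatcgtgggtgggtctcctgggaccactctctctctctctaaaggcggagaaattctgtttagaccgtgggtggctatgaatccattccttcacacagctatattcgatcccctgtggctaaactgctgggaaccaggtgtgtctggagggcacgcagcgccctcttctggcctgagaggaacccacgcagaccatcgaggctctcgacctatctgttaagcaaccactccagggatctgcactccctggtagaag
Kcnh2: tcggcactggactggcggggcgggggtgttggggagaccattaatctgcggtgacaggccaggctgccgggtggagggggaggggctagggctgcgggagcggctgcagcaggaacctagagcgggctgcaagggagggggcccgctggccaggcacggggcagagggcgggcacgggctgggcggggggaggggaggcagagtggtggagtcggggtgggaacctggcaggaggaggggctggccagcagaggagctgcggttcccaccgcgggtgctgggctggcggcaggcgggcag
The window of Kcnn1 held CAGCTG 3 times and the other 4 windows did not hold it. Over all genes CAGCTG was found in 16.3% of 32851 windows of 300 bases, and over the channel genes in 26 of 100 windows. The left part of the RE1 element bound by the neuronal silencer REST, TTCAGCACC, its right part and the SMAD palindrome GTCTAGAC were searched on both strands as well. None was found in the 100 windows, which cover 73 channel genes. The left part of RE1 occurred in 0.371% of all windows, the right part in 0.521% and the palindrome in 0.213%. The printed promoters differed in base composition. Kcnmb4 had 79% G and C with 48 CpG pairs, while Scn2b had 38.3% with 2, and the median of the channel windows was 57.7% against 52.7% over all windows.

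Sodium channel pore subunits read under the median of all probe sets, and the 2 of 8 that passed (25%, against 11.1% of all genes) were neuronal. Scn3a, the isoform of embryonic neurons, read 5.46, 5.78 and 6.16 on mutant arrays (lowest, median and highest) and 4.91, 5.22 and 5.32 on control arrays. Every mutant lay above every control, and the difference of 0.65 ± 0.11 (SE, 1.56-fold, adjusted p = 0.00251) was the largest rise among the channel genes. Mutants 1 and 4 were highest, and mutant 6 was the lowest of the mutants. A second probe set of Scn3a, with a mean of 3.64, differed by −0.09 (adjusted p = 0.621 in a fit of each probe set alone, in which 5.40% of 45037 passed, 2.70% higher and 2.70% lower). Scn8a, found at nodes of Ranvier and axon initial segments, read 4.84, 5.28 and 5.51 in mutants and 4.63, 4.82 and 5.08 in controls. The groups overlapped in Scn8a, with 4 of 6 mutants above all controls, and it passed narrowly (0.39, adjusted p = 0.0479). Its other 4 probe sets were dimmer and differed by −0.13 to 0.13, and the Scn8a call was lost with 8 of the 12 arrays left out singly.

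The remaining 6 pore subunits measured, Scn1a, Scn2a, Scn7a, Scn9a, Scn10a and Scn11a, differed by −0.07 to 0.04 and did not pass. Scn4a, the pore subunit of adult skeletal muscle, was not analysed here.

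Of the 3 beta subunits, which anchor and modulate the pore, 1 rose, against 6.30% of all genes. Scn2b, a subunit linked to the pore by a disulfide bond, read 7.48, 7.58 and 7.94 in mutants and 7.09, 7.27 and 7.35 in controls. The groups did not overlap, and mutants 1 and 2 were highest (difference 0.41 ± 0.08, adjusted p = 0.00624). Dimmer probe sets of Scn2b, with means of 5.74 and 5.29, differed by 0.01 and −0.15. With its probe sets averaged Scn2b differed by 0.09 and did not pass (adjusted p = 0.406). Scn3b was among the brightest channel signals and read 8.70, 8.98 and 9.33 in mutants and 8.82, 9.53 and 9.66 in controls. Control 1, at 8.82, lay apart from the other controls, which were at 9.43 or more, and all mutants were under that level. Over all arrays Scn3b differed by −0.41 ± 0.15 and did not pass (adjusted p = 0.0907), and without control 1 it differed by −0.53 and passed (adjusted p = 0.00847). Its second probe set differed by −0.36. Scn4b differed by 0.04.

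Among calcium-activated potassium channels, members of single families went opposite ways. The large-conductance channel, opened jointly by voltage and calcium, has its pore from Kcnma1 and accessory subunits from the Kcnmb genes. Kcnmb4, the accessory subunit typical of neurons, read 9.33, 9.44 and 9.54 in mutants and 8.94, 9.01 and 9.23 in controls. The groups were tight and did not overlap (0.38 ± 0.06, 1.30-fold, adjusted p = 0.000974), and this was the smallest p of all the members. Kcnma1 read 6.37, 6.51 and 6.74 in mutants and 6.71, 6.88 and 7.15 in controls. All but mutant 5 were under every control, and the pore gene fell by 0.41 on the log2 scale (adjusted p = 0.00607) while its neuronal partner rose. Of the other 4 Kcnma1 probe sets, 2 also passed when fitted alone, at −0.48 and −0.51, and the other 2, with means of 4.39 and 3.02, differed by 0.04 and −0.04. Kcnmb1, the smooth muscle accessory subunit, differed by −0.18 (adjusted p = 0.124) at a signal of 4.31.

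Kcnmb4 shares its locus with antisense transcripts. Kcnmb4os2, a non-coding RNA that overlaps Kcnmb4 in RefSeq, lay at 6.77 to 7.19 in mutants (mean 7.01) and 6.51 to 6.83 in controls (mean 6.71). On 5 of 6 mutant arrays it exceeded all controls (0.30, adjusted p = 0.0178), in the same direction as Kcnmb4. Because the transcripts overlap, the signals are not taken as independent evidence, although both genes are among the 8 counted as higher. Without mutants 1 and 2 the call of Kcnmb4os2 was lost (0.27, adjusted p = 0.102), as it was without control 3, mutant 4 and mutant 6 (0.29, adjusted p = 0.0890). Kcnmb4os1, a second overlapping non-coding RNA, was dim at 3.63 and differed by −0.02. Kcnq1ot1, the imprinted antisense RNA of the Kcnq1 locus, varied widely within groups, at 7.90 to 9.38 in mutants and 7.99 to 8.65 in controls, and did not pass (adjusted p = 0.832).

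The small-conductance channels, which open to calcium alone and shape the after-hyperpolarisation, were split as well. Kcnn1 read 6.40, 6.53 and 6.89 in mutants and 5.87, 6.04 and 6.37 in controls. No mutant lay under the highest control, although mutant 5 and control 5 differed by little, and Kcnn1 rose by 0.52 ± 0.10 (SE, 1.43-fold, adjusted p = 0.00394). For its dimmer probe set the difference was 0.28 (adjusted p = 0.0897). Kcnn2 read 5.65, 5.74 and 5.93 in mutants and 5.81, 6.11 and 6.28 in controls, and fell by 0.32 on the log2 scale (adjusted p = 0.0200), with 4 of 6 mutants under all controls. Control 1 was the control that overlapped the mutants. Without mutants 1 and 2 Kcnn2 differed by −0.29 (adjusted p = 0.115), and without control 3, mutant 4 and mutant 6 by −0.32 (adjusted p = 0.0946). Kcnn3, known from fibres that lack innervation, read 5.14, 5.45 and 5.56 in mutants and 5.41, 5.79 and 5.99 in controls. Its difference of −0.32 missed the threshold (adjusted p = 0.0503) and it passed in 7 of 23 alternatives, among them quantile normalisation (−0.31, adjusted p = 0.0428). Over all alternatives its adjusted p was 0.0146 to 0.233. Kcnn4, of epithelia and blood cells, differed by −0.24 (adjusted p = 0.0962).

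Voltage-gated potassium channels were the largest family, with 31 pore or silent subunits. Of these, 2 fell (6.45%, against 4.80% of all genes) and none rose (against 6.30%). Kcnh2, whose channel repolarises the heart, read 8.05, 8.22 and 8.40 in mutants and 8.47, 8.57 and 8.77 in controls. The groups did not overlap, and mutants 3, 5 and 6 were nearest the controls (−0.37 ± 0.07, adjusted p = 0.00607). Kcns2, a silent subunit that forms no channel alone and alters those of the Kcnb genes, read 5.61, 5.99 and 6.32 in mutants and 6.31, 6.46 and 6.87 in controls. Mutants 1 and 2 were lowest, at 5.61 and 5.63, mutant 5 lay just inside the control range, and Kcns2 fell by 0.57 on the log2 scale (adjusted p = 0.00984). Without those 2 arrays Kcns2 differed by −0.41 (adjusted p = 0.0528), and without control 3, mutant 4 and mutant 6 by −0.61 (adjusted p = 0.0581). Its other probe set was dim at 4.08 and differed by −0.17.

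The other 29 pore and silent subunits differed by −0.19 to 0.20. Kcna5, the delayed rectifier of heart and vascular smooth muscle, was the brightest of the family at 9.00 ± 0.20 in mutants and 9.14 ± 0.15 in controls (SD, n = 6 each, adjusted p = 0.364). Kcna1, a channel of axons, read 7.26 to 7.59 in mutants and 7.03 to 7.44 in controls by its brightest probe set (0.12, adjusted p = 0.406). Another Kcna1 probe set, with a mean of 6.99, differed by 0.48 and passed when fitted alone (adjusted p = 0.0447). Dimmer ones, with means of 4.53 and 4.51, each differed by −0.06, so the probe sets of Kcna1 disagreed in size and in sign. Kcnc1, of fast-firing neurons, differed by −0.12.

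Accessory subunits of the voltage-gated potassium channels numbered 12. Of these, 1 rose (8.33%, against 6.30% of all genes) and 1 fell (8.33%, against 4.80%). Kcne1l, of the family of small single-span subunits, read 7.79, 8.03 and 8.37 in mutants and 8.23, 8.55 and 8.85 in controls. It fell by 0.51 on the log2 scale (adjusted p = 0.0153), with mutant 1 the only mutant inside the control range. Without control 3, mutant 4 and mutant 6 its difference was −0.46 (adjusted p = 0.0978). Kcnip4, a calcium sensor that binds channels of the Kcnd genes, read 4.62, 4.81 and 5.33 in mutants and 4.34, 4.42 and 4.72 in controls. Its rise of 0.43 (adjusted p = 0.0307) was carried by mutants 1, 2 and 4, which were above all controls, and the call was lost with 8 of the 12 arrays left out singly. Without mutants 1 and 2 Kcnip4 differed by 0.26 (adjusted p = 0.109). Kcne4 spread more among mutants than controls, at 8.18 ± 0.36 and 8.01 ± 0.20 (SD, n = 6 each), and did not pass.

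Inward rectifiers, which hold the resting potential, showed 1 rise among 15 (6.67%, against 6.30% of all genes). Kcnj14, a channel known from motor neurons in rodents, read 5.48, 5.63 and 5.87 in mutants and 5.20, 5.31 and 5.53 in controls. Only mutant 5 was inside the control range (0.30, adjusted p = 0.0216), and its call was lost without control 3 (0.28, adjusted p = 0.0502) or control 4 (0.27, adjusted p = 0.0524). Kcnj11 and Kcnj8, the pores of the ATP-sensitive channels of muscle fibres and of smooth muscle and pericytes, were bright and did not pass. Kcnj8 read 8.76 to 9.37 in mutants and 8.79 to 9.54 in controls (−0.20, adjusted p = 0.369). Abcc9, a receptor subunit of ATP-sensitive channels, fell by 0.35 on the log2 scale and passed narrowly (adjusted p = 0.0474), with 1 mutant under all controls. Kcnj15 differed by 0.11.

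Of 12 tandem-pore leak channels, 1 fell (8.33%, against 4.80% of all genes). Kcnk13, a leak channel inhibited by halothane, read 7.23, 7.52 and 8.04 in mutants and 8.15, 8.25 and 8.39 in controls. Every mutant lay under every control, with mutant 2 the lowest and mutant 5 closest to the controls, and the fall of 0.69 on the log2 scale (1.61-fold, adjusted p = 0.00160) was the largest change of the members in either direction. A second Kcnk13 probe set was dim at 3.16 and differed by 0.02. The brightest member of all, Kcnk1, stayed within 9.47 to 9.72 in mutants and 9.48 to 9.88 in controls (−0.06, adjusted p = 0.649). Kcnk6 differed by −0.10, Kcnk3 by 0.09 and Kcnk5 by 0.06, and none of them passed.

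**Figure D2:**
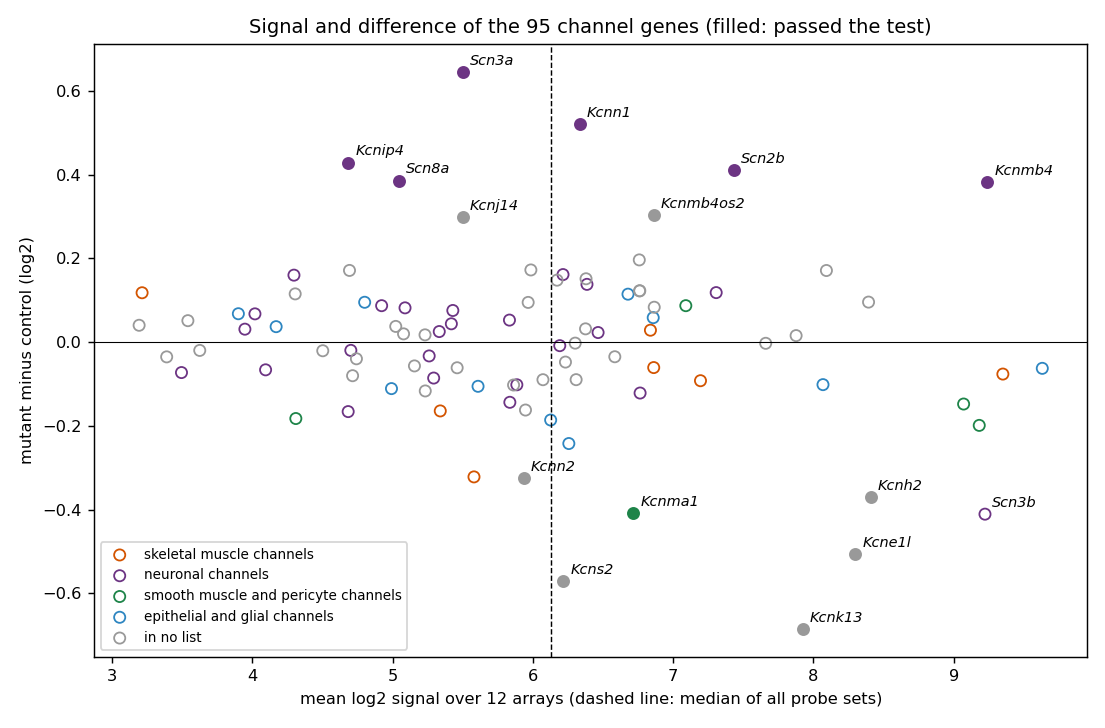
Difference between mutant and control (vertical axis, log2) against mean log2 signal over 12 arrays (horizontal axis) for the 95 channel genes, coloured by list; filled points passed the test. The dashed line is the median of all probe sets, 6.13, and 9 of the 14 genes that passed lie to its right.

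Signals of the channel genes were low for genes on this array. Their mean over the 12 arrays was above the median of all probe sets in 43 of 95 members, or 45.3%, against 66.9% of all genes, and the median member read 5.95 against 7.87 for all genes. In mutants alone 42 members were above the median and in controls alone 42 were, and 34 were above it on every array. Probe sets bind with different strengths, so a signal over this line does not show that a gene is expressed, nor one under it that it is silent. With all probe sets of each gene averaged in place of the brightest, 19 members were above the line. Of the 43 members above it 9 passed, or 20.9%, while 14.8% of all genes above it passed. Of the 52 at or under it 5 passed, or 9.62%, against 3.52% of all genes there. Scn3a, Kcnn2, Kcnj14, Kcnip4 and Scn8a are the 5 that passed from under the line, and RMA signals understate fold changes at such levels.

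Families differed in how many members were above the line. Among the voltage-gated accessory subunits 8 of 12 were above it, and 7 of 12 leak channels were. The share was 14 of 31 for voltage-gated pore and silent subunits, 5 of 15 for inward rectifiers, 3 of 8 for calcium- or sodium-activated pores and 0 of 8 for sodium channel pores. The 10 brightest members were Kcnk1, Kcnj11, Kcnmb4, Scn3b, Kcnj8, Kcna5, Kcnh2, Kcnq1ot1, Kcne1l and Kcne4, and 3 of these 10 passed. Among all genes 11.1% passed, and among all genes above the line 14.8%.

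Muscle channels were set beside neuronal channels as lists. The muscle list had 9 genes and 7 measured, with a median difference of −0.08. None of the 7 passed, and 1, Kcnn3, had an unadjusted p under 0.05 and an adjusted p of 0.0503. The neuronal list had 36 symbols and 30 measured, with a median of 0.05. Of these, 6 rose (20%, against 6.30% of all genes) and none fell (against 4.80%), while 19 of 30 differences lay above 0. The lists were drawn up with earlier results on these arrays known, so this count is not independent evidence. Kcnma1, Kcnn2 and Kcns2, which passed and fell, had been placed on the smooth muscle list or on none. With probe sets averaged 3 of the 30 rose (Kcnmb4, Kcnn1 and Scn3a) and Kcnj3, a neuronal inward rectifier, fell, and with dim probe sets left out 3 of 10 rose. With single arrays left out 4 to 6 rose. Scn3b, on the neuronal list, differed by −0.41 over all arrays and did not pass (adjusted p = 0.0907). It passed as a fall without control 1 (−0.53, adjusted p = 0.00847). Without mutants 1 and 2, 4 neuronal channels rose and Scn3b fell. That no neuronal channel fell therefore depends on the arrays used. The median of the neuronal list was near that of all genes (0.01), and the rises were those of 6 genes. In 10 of 30 neuronal and 4 of 7 muscle channels the mean signal was above the median of all probe sets.

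Single muscle channels showed no change past the test, and some were bright. Kcnj11 read 9.18, 9.32 and 9.43 in mutants and 9.30, 9.40 and 9.47 in controls (−0.08 ± 0.05, adjusted p = 0.406). Its spread was narrow, and 3 of 6 mutants were under all controls. Kcnc4 and Kcne3, which can form a channel together in muscle, read 7.15 ± 0.10 against 7.24 ± 0.18 and 6.85 ± 0.22 against 6.82 ± 0.58 (mutant against control, SD, n = 6 each). Control 3 reached 7.89 for Kcne3. A second Kcnc4 probe set, whose suffix marks probes shared with other transcripts, read 6.23 in mutants and 6.59 in controls and passed when fitted alone (−0.35, adjusted p = 0.0252), and with the mean of both Kcnc4 passed (−0.22, adjusted p = 0.0182). Kcna7, of skeletal muscle and heart, differed by −0.06. The inward rectifiers Kcnj2 and Kcnj12, which set the resting potential of mature fibres, were dim at 3.22 and 5.34 and differed by 0.12 and −0.16.

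**Figure D3:**
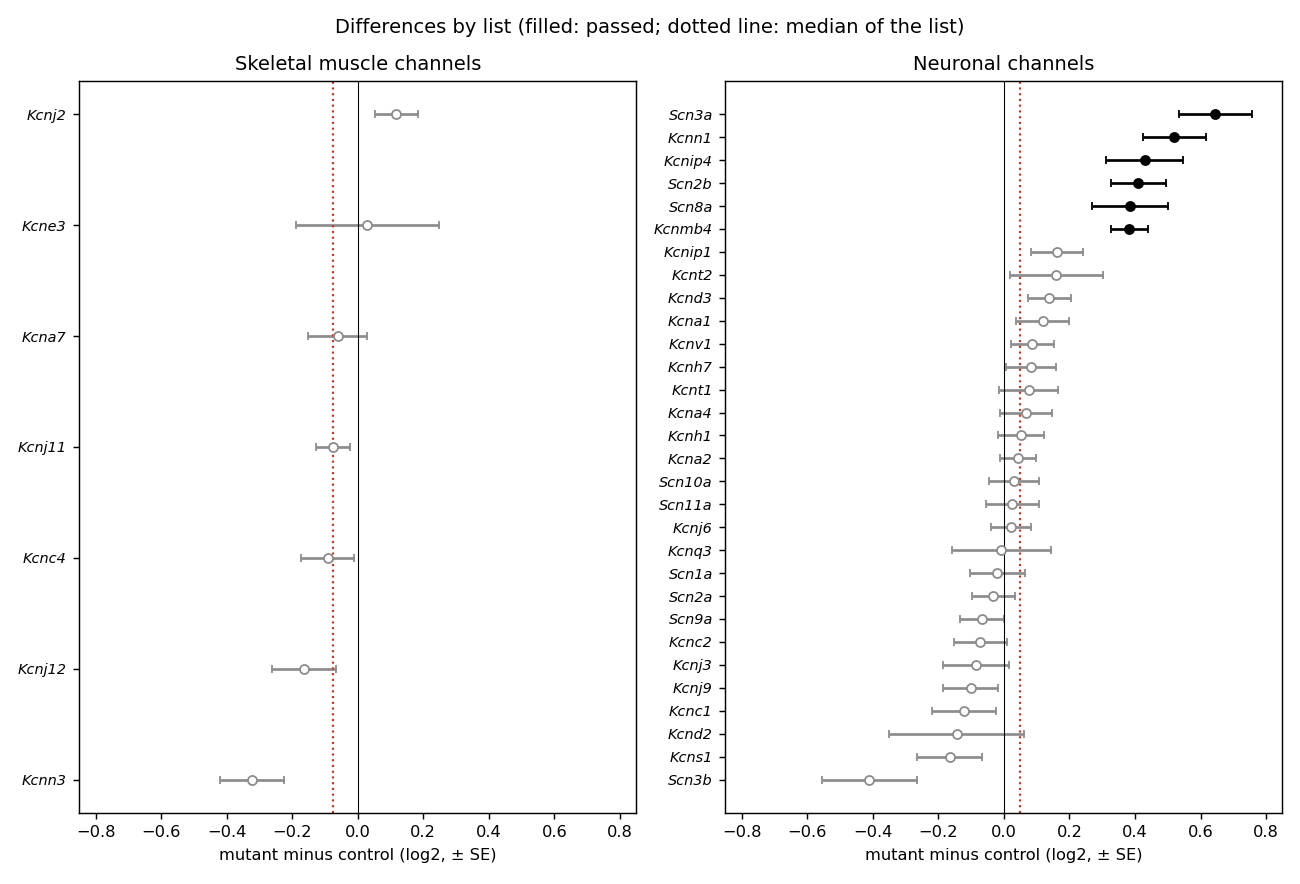
Difference between mutant and control (horizontal axis, log2) with its SE for each measured gene of the muscle list (left, 7 genes) and the neuronal list (right, 30 genes); filled points passed and the dotted line is the median of the list. The 6 filled points are all neuronal and lie between 0.38 and 0.65, and most other points lie near 0.

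Of 5 smooth muscle and pericyte channels Kcnma1 fell (20%, against 4.80% of all genes) and the other 4 did not pass. The list median was −0.18, and 2 of the 5 had an unadjusted p under 0.05. The mean of that list on an array was −0.29 to −0.02 in mutants and −0.11 to 0.09 in controls, with 5 of 6 mutants under all controls. Of 11 epithelial and glial channels none passed (median −0.06), and 2 had an unadjusted p under 0.05. The 42 members in no list gave 2 rises (4.76%, against 6.30% of all genes) and 5 falls (11.9%, against 4.80%), with a median of 0.01.

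Several lists of cell type markers moved on the same arrays. Of 13 neuron markers 10 rose (76.9%, against 6.30% of all genes) and 1 fell (7.69%, against 4.80%), with a median of 0.61. The marker that fell was Ret (−1.01, limma adjusted p = 0.00587), and Dcx differed by −0.24 and did not pass. Tubb3, neuronal β-tubulin, read 8.59 ± 0.26 in mutants and 7.70 ± 0.19 in controls (SD, n = 6 each), and the axonal gene Stmn2 differed by 0.99. The summed signal of the neuron markers on a linear scale was 4900 to 8493 in mutants and 4480 to 4976 in controls. Their mean on an array, relative to the control mean, was 0.07 to 0.90 in mutants and −0.09 to 0.12 in controls, and 5 of 6 mutants were above all controls. The mean of the neuronal channels was 0.02 to 0.17 in mutants and −0.05 to 0.07 in controls, with 3 of 6 mutants above all controls. Both means were high on mutants 1 and 2, while mutant 6 was the lowest mutant for the neuron markers. In Schwann and glia markers 3 of 7 rose (42.9%, against 6.30% of all genes) and 1 fell (14.3%, against 4.80%). The marker that fell was Erbb3 (−0.51, limma adjusted p = 0.000519). The summed signal of the Schwann and glia markers was 4092 to 5060 in mutants and 3965 to 4639 in controls. Of these markers 12 of 13 neuronal and 7 of 7 glial ones were above the median of all probe sets, and RMA gives no zeros. The part of nerve content in the rise of the 6 neuronal channels was not tested. In whole tissue, fewer cells of a type and less RNA per cell cannot be told apart.

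Skeletal muscle markers fell in 12 of 13 cases (92.3%, against 4.80% of all genes), with a median of −0.66. The summed signal of these markers was 84791 to 109355 in mutants and 121029 to 145484 in controls. Their array means lay under every control on 6 of 6 mutants, at −0.93 to −0.47 against −0.30 to 0.17. The mean of the 7 muscle channels was −0.19 to 0.07 in mutants and −0.17 to 0.28 in controls, so the groups overlapped. Smooth muscle and pericyte markers fell in 2 of 7 cases (28.6%, against 4.80% of all genes), with a list median of −0.05. The 2 that fell were Acta2 (−0.45) and Tagln (−0.92). The other 5 did not pass, among them Myh11 (0.04) and Cnn1 (−0.13), which read under the median of all probe sets. The summed signal of the 7 markers was 16974 to 21674 in mutants and 22784 to 25769 in controls. Bright genes contribute most to it, and Acta2 read 13.7 in mutants and 14.1 in controls. The array means of these markers overlapped, at −0.19 to −0.03 in mutants and −0.15 to 0.13 in controls, and the pericyte marker Rgs5 differed by 0.55 (adjusted p = 0.0651). The part of these marker differences in the falls of Kcnma1, Kcnh2, Kcnk13, Kcns2, Kcne1l and Kcnn2 was not tested. Markers of mesenchyme rose in 5 of 7 cases and of epithelium in 4 of 10, against 6.30% of all genes. Endothelium markers rose in 1 of 8 cases and macrophage markers in 1 of 5. In lists this short, 1 gene that passed is not read as a shift of the cell type. None of 5 erythroid markers passed.

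**Figure D4:**
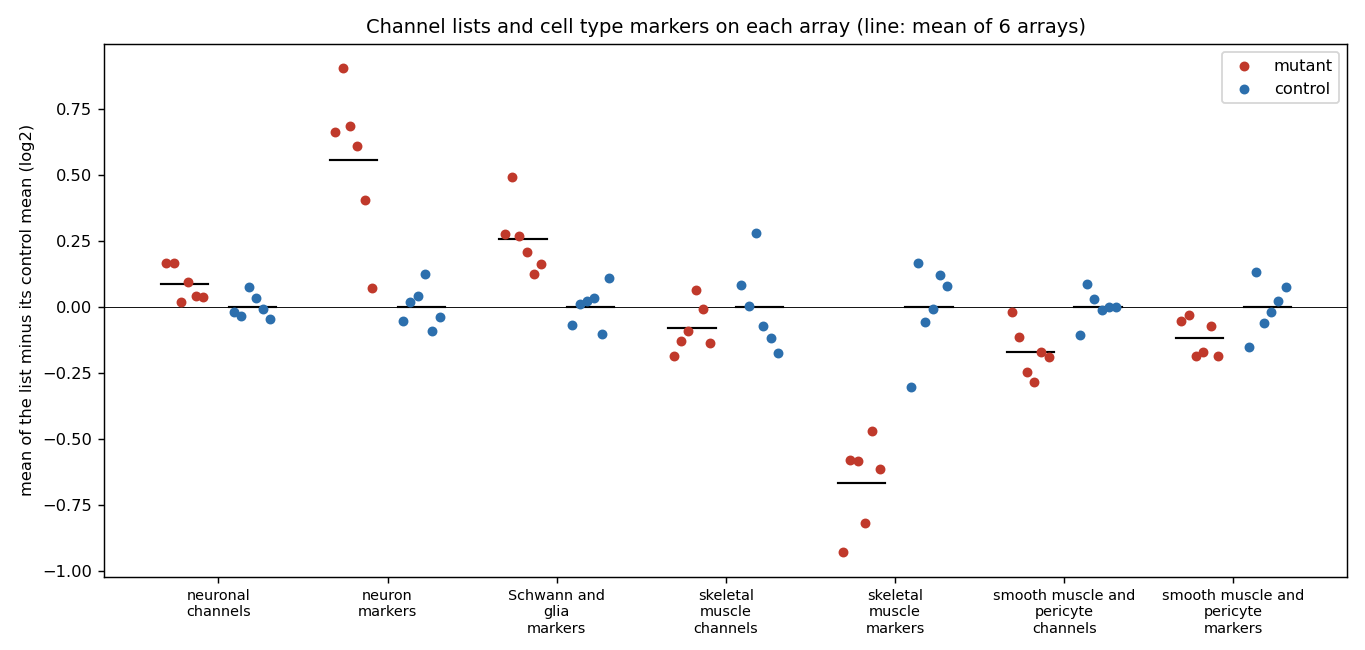
Mean of each list on each array relative to its mean over controls (vertical axis, log2) for 3 channel lists and 4 marker lists, with mutants in red (left) and controls in blue (right); lines are means of 6 arrays. Muscle markers lie under every control on all 6 mutants and neuron markers above every control on 5 of 6, while the channel lists stay within 0.29 of 0.

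Genes that work beside these channels in excitable membranes were followed as a separate list. Of 32 measured partners, 9 fell and 2 rose, or 28.1% lower and 6.25% higher, against 4.80% and 6.30% of all genes, with a median of −0.08. Those that fell were mostly of the muscle membrane. The calcium channel of the T-tubule fell in its pore Cacna1s (−0.99, adjusted p = 0.000170) and in its subunits Cacng1 (−0.86), Cacnb1 (−0.50) and Cacna2d1 (−0.36). Ryr1, the calcium release channel, fell by 0.92 on the log2 scale, and the acetylcholine receptor subunits Chrna1 and Chrng by 0.71 and 0.95. Cacna1s, Chrna1, Ryr1, Chrng and Atp1b2 were under every control on 6 of 6 mutant arrays, and Ank3 was above every control on 6 of 6. Groups thus did not overlap in 18.8% of the partners, 5 lower and 1 higher. Over all genes this share was 6.30%, with 2.90% lower and 3.40% higher. Atp1b2, a subunit of the sodium pump, fell by 0.38. Those that rose were Ank3 (0.25, adjusted p = 0.00404), the ankyrin that gathers sodium channels at the axon initial segment, and Cntn1 (0.49, adjusted p = 0.0211), a contactin of axons. The chloride channel Clcn1 did not pass. Whether partners and channels of muscle differ as lists was not tested.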

How the data were processed

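Each of 12 tongue samples was measured on 1 array. The deposited values are log2 signals per probe set, which the authors computed by RMA (per the submitters' processing notes, which name no version); that the base is 2 follows from the span of the values. RMA forces arrays to like distributions and compresses dim signals. Array control probe sets (64) were dropped, leaving 45037. The GEO platform annotation gave 1 symbol to 34945 probe sets, several to 932 and none to 9160; RefSeq (GRCm38.p6) changed none. The channel genes came from 197 probe sets, and 54 of the 95 had more than 1. Groups follow the sample titles and genotypes.

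Mutants were compared with controls in limma 3.58.1 (R 4.3.3; lmFit, eBayes, 2-sided) over 18193 genes with Benjamini-Hochberg adjustment and a threshold of 0.05. The fit was tested on simulated data. Array number limits the precision. Channel members, lists and alternatives were chosen with earlier results of these data known. By rule the text names members that passed, all muscle channels, the 5 brightest of each channel list, the 10 brightest and 10 largest differences among all members, and partners that passed; other members were named after their values were seen. Alternatives were quantile normalisation, median centring, averaged or separate probe sets, leaving out dim probe sets, trended variance, array weights, a replicate block and arrays left out.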

Additional observations from a re-analysis of the deposited data

Results flagged for a closer look

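Among 70 groups of 6 arrays examined for the named channel genes, 4 held 1 array far from the other 5, where chance gives about 1 in 20. Kcnj2 read 3.56 on mutant 4 against 3.15 to 3.26 on the other mutants. Kcnn4 read 5.79 on mutant 1 against 6.11 to 6.25 on the other mutants. Scn3b read 8.82 on control 1 against 9.43 to 9.66 on the other controls. Kcnj15 read 6.91 on control 2 against 6.49 to 6.62 on the other controls.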

How the results depend on the processing

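The number of arrays and dim signals limit these results, since 52 of the 95 channel genes read at or under the median of all probe sets. The count of genes higher in mutants (8) was 5 with probe sets averaged, 4 with dim probe sets left out (fewer genes tested), 4 without mutants 1 and 2, 4 without control 3, mutant 4 and mutant 6, and 5 to 8 with single arrays left out, lowest without control 4. The count lower (6) was 8 with probe sets averaged, where Kcnc4 and Kcnj3 were gained, 3 without control 3, mutant 4 and mutant 6 (fewer samples) and 6 to 7 with single arrays left out. These sets of arrays were chosen after the data were seen. Members above the median level (43) were 19 with probe sets averaged, which adds dimmer ones, and 43 to 44 with single arrays left out. Over all genes, 733 to 1209 were higher and 665 to 899 lower with single arrays left out, against 1147 and 873. The neuronal median (0.05) was 0.13 with dim probe sets left out, and the muscle median kept its sign in all 23 alternatives. For the 35 named members, 796 single values were compared: 38 lost and 10 gained a call, none of those called turned direction, and 11 uncalled values of 6 genes changed sign. Calls of Kcnj14, Kcnip4, Scn8a, Kcnmb4os2, Kcnn2 and Kcns2 were lost both without mutants 1 and 2 and without control 3, mutant 4 and mutant 6, and Scn8a differed by 0.07 with its probe sets averaged; the cause was not tested. Deviations of same-numbered arrays correlated by 0.12 to 0.24 in 5 of 6 pairs and by −0.06 in the other, and 7 of 12 arrays correlated best with the array of their own number. This leans towards pairing as a hint from the data, while no label states a pairing, and the unblocked fit was kept. With the replicate block 7 genes were higher and 6 lower, the call of Scn8a being lost (adjusted p = 0.0900).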
